A study of Rattus norvegicus with 11 samples.

Results

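The nuclear genes for the subunits of respiratory complex I were examined in soleus muscle of 11 adult male Sprague Dawley rats. They were the rows of the count table whose symbol is Ndufa, Ndufb, Ndufc, Ndufs or Ndufv followed by digits, together with Ndufa10l1 and Ndufab1. Assembly factor genes (Ndufaf) and the paralogue Ndufa4l2 fall outside this rule. A total of 35 of the 16810 rows met it, and all 35 were among the 10814 genes with enough reads to be tested. Ndufa3, Ndufa13, Ndufb1 and Ndufc1 had no row under these symbols and so were not analysed here.

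The animals were 12 months old, and no 2 were from the same litter. Of the mothers, those of 6 animals (control 1 to 6) ate a normal fat diet with 10% sucrose, and the mothers of 5 (high-fat 1 to 5) ate a diet rich in saturated fat with 20% sucrose. The labels put the fat content at 6% or 7% in the first diet and at 23.3% or 23.5% in the second, depending on the passage. Mothers were on their diet from 3 weeks ahead of mating until the end of lactation, and all offspring ate standard chow after weaning at day 21, so the groups differed in the mother's diet and shared the adult diet. The series title names insulin resistance and oxidative phosphorylation in the offspring, and the comparisons below relate the complex I transcripts to maternal diet, body measures and insulin.

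Complex I (NADH:ubiquinone oxidoreductase) is the entry point of most electrons into the mitochondrial respiratory chain. Its matrix arm takes electrons from NADH in the N module and passes them along iron-sulfur clusters to ubiquinone in the Q module. Its membrane arm pumps protons and is built around subunits encoded in mitochondrial DNA, with nuclear accessory subunits in a proximal part next to the matrix arm and in a distal part. Slow oxidative muscle such as the soleus is rich in mitochondria.

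Libraries held 10.2 to 15.4 M counts (M, mega), with 12.7 ± 1.83 M for control animals (SD, n = 6) and 12.9 ± 2.24 M for high-fat animals (SD, n = 5). The slow myosin gene Myh7 stood at 17367 to 25146 scaled counts per M counts (CPM), so the defining slow fibre marker was present in each library. Fast fibre genes were present too and varied between animals. Of the fast myosin genes, Myh2 stood at 100 to 2391 CPM, Myh1 at 19.5 to 559 and Myh4 at 6.91 to 150. The fast troponin gene Tnni2 stood at 59.5 to 1611 CPM. All 35 members were read in each library, with 332 to 18138 counts. Sampling error was 5.49% for the smallest of these counts, and such errors cover counting only.

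The members took up 0.936% to 1.47% of all counts in a library. Summed over the members, the level was 8331 CPM in high-fat 5, 9332 in control 3, 15161 in control 6 and 16029 in control 4. The other 7 animals, of both groups, lay between 10855 and 12874 CPM. Group means were 12382 ± 2621 CPM for control (SD, n = 6) and 11256 ± 1748 CPM for high-fat animals (SD, n = 5), a difference smaller than either SD. In these whole-muscle libraries, fewer muscle fibres and less of these RNAs per fibre cannot be told apart.

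Single members drew from 35 CPM (Ndufs5) to 986 CPM (Ndufb9) on average. Read counts scale with transcript length, and no transcript lengths were used here, so this range is no order of abundance. The means of 6 members were under 100 CPM, namely Ndufs5, Ndufs6, Ndufa10l1, Ndufb4, Ndufb6 and Ndufb3. For 5 of these 6 the RefSeq gene table (GRCr8) names at least 1 close copy or pseudogene, as it does for 14 of the other 29 members. The table names 11 such copies of Ndufb4 and 3 of Ndufb3. Short reads shared with a copy can be split or lost in counting, and the part of this in the low counts was not tested.

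Members varied together from animal to animal. To compare genes of unlike read number, each gene's log2 CPM was set relative to its own mean over the 11 animals. The mean of these deviations over all 35 members was -0.46 in high-fat 5, -0.32 in control 3, 0.37 in control 6 and 0.41 in control 4. The remaining 7 animals lay between -0.09 and 0.13. Control 4 and control 6 were the 2 highest animals for 28 of the 35 members, and control 3 and high-fat 5 were the 2 lowest for 29 of the 35. The control group thus held both of the highest animals and 1 of the 2 lowest.

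**Figure D1:**
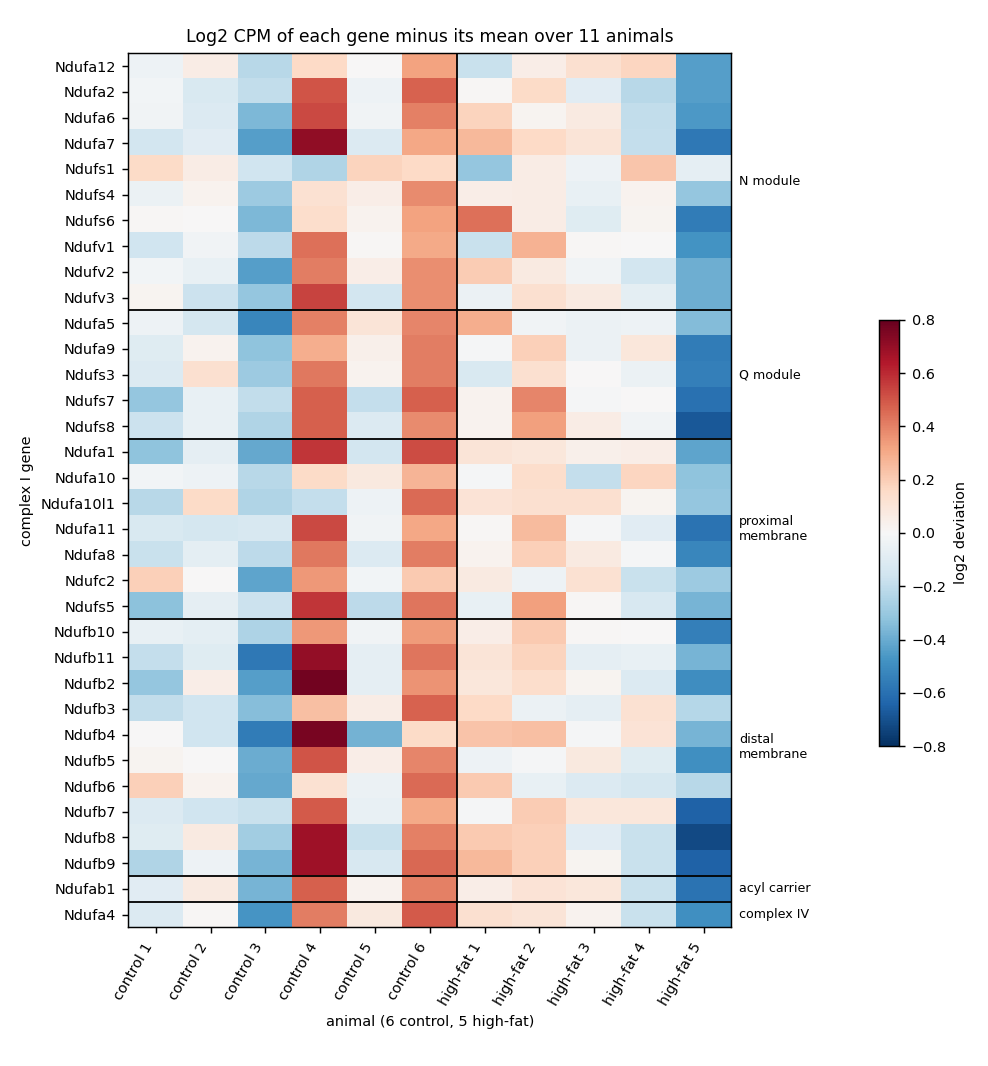
Log2 CPM of 34 of the 35 genes (rows, ordered by part of the complex) minus that gene's mean over 11 animals (columns); red is above and blue below the mean. Control 4 and control 6 are red and control 3 and high-fat 5 blue in most rows, and Ndufs1 is the row that departs furthest from this.

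Over the 595 pairs of members the median Pearson correlation of log2 CPM across the 11 animals was 0.85, and 363 pairs (61.0%) were above 0.8. The closest pair was Ndufa8 and Ndufs8 (r = 0.984). The first principal component held 84.5% of the variance of the members, against 4.32% for the second. Within the 6 control animals the median pair was at 0.90, and within the 5 high-fat animals at 0.86. These correlations describe a small set of libraries whose members share a depth and a scaling factor. With library totals in place of the scaling by trimmed mean of M values (TMM) the median was 0.70 and the first component held 71.9%. The TMM factor was 0.897 in control 6, 0.919 in control 4, 1.04 in control 3 and 1.12 in high-fat 5, and its part in the co-variation beyond that comparison was not tested.

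Related gene groups had other median correlations. The 39 measured nuclear genes of complexes II to V had a median pairwise r of 0.82. The median was 0.64 for 71 mitochondrial ribosomal protein genes and 0.47 for 70 cytosolic ribosomal protein genes. It was 0.31 for 14 complex I assembly factor genes, which help build the complex but do not remain in it. Control means of these 14 ran from 13.7 CPM (Ndufaf7) to 248 CPM (Acad9). The part of low counts in their median was not tested.

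Ndufb10, an accessory subunit of the distal membrane arm, followed the rest most closely. Its level was 317 CPM at the lowest, 367 at the median and 481 at the highest among control animals, and 392, 439, 382, 379 and 258 CPM in high-fat 1 to 5. Its correlation with the mean of the other 34 members was 0.98, and the SD of its log2 ratio to the members' mean was 0.06. Next came Ndufa8, Ndufb9, Ndufa4 and Ndufab1, each at 0.97. Ndufab1 encodes the mitochondrial acyl carrier protein, which is part of complex I and also serves fatty acid synthesis in the organelle. It stood at 241, 322 and 435 CPM (lowest, median and highest control animal) and at 322, 335, 332, 275 and 207 CPM in high-fat 1 to 5. Ndufa8, of the proximal membrane arm, stood at 172, 186 and 265 CPM in controls and at 202, 226, 208, 197 and 138 CPM in high-fat 1 to 5. In Ndufb10 and Ndufab1 control 4 marked the top and high-fat 5 the bottom.

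Ndufa4, long counted as a complex I subunit and now assigned to cytochrome c oxidase (complex IV), stood at 530, 756 and 1029 CPM (lowest, median and highest control animal) and at 801, 788, 749, 649 and 524 CPM in high-fat 1 to 5. Of the 35 members, 24 had r above 0.9 with the rest and 10 lay between 0.5 and 0.9. The lowest of these 10 were Ndufa10l1 at 0.59 and Ndufb6, of the distal membrane arm, at 0.72. Ndufb6 stood at 48.3, 67.9 and 88.0 CPM in controls and at 74.5, 61.5, 59.5, 58.3 and 55.3 CPM in high-fat 1 to 5.

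Ndufs1 departed from the others. It encodes the largest core subunit, which sits in the N module and carries several of the iron-sulfur clusters. Its levels in the control animals were 346, 441 and 463 CPM (lowest, median and highest), and those of high-fat 1 to 5 were 330, 425, 399, 476 and 390 CPM. Control 4, the highest animal for 25 of the members, was the lowest control animal for Ndufs1, and high-fat 5, the lowest animal for 27 of the members, lay inside the control range. Its r with the mean of the other 34 was -0.02 (Spearman's rho was -0.15), and each of the 21 negative pairs among the members involved it. Without 1 animal this r ran from -0.19 (without control 6) to 0.30 (without control 4), and with library totals as scaling it was -0.31.

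Members with the highest r to Ndufs1 were Ndufa12 (0.43), Ndufa10 (0.39), Ndufa10l1 (0.30) and Ndufs4 (0.30). Ndufa12 and Ndufs4 are accessory subunits of the same N module, and Ndufa10 belongs to the proximal membrane arm. The lowest were Ndufa7 (-0.27), Ndufb4 (-0.24) and Ndufb9 (-0.23). The ratio of Ndufs1 to Ndufv1, a core subunit of the same module, was 2.14 times as high in high-fat 5 as in control 4, and its ratio to Ndufb9 was 2.84 times as high. As a log2 ratio of CPM, Ndufs1 over Ndufv1 was -0.42 ± 0.35 for control (SD, n = 6) and -0.35 ± 0.26 for high-fat animals (SD, n = 5), a difference smaller than the spread within either group. The ratio of Ndufs7 to Ndufs8, which both lie near the ubiquinone site, varied 1.18-fold over the 11 animals.

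**Figure D2:**
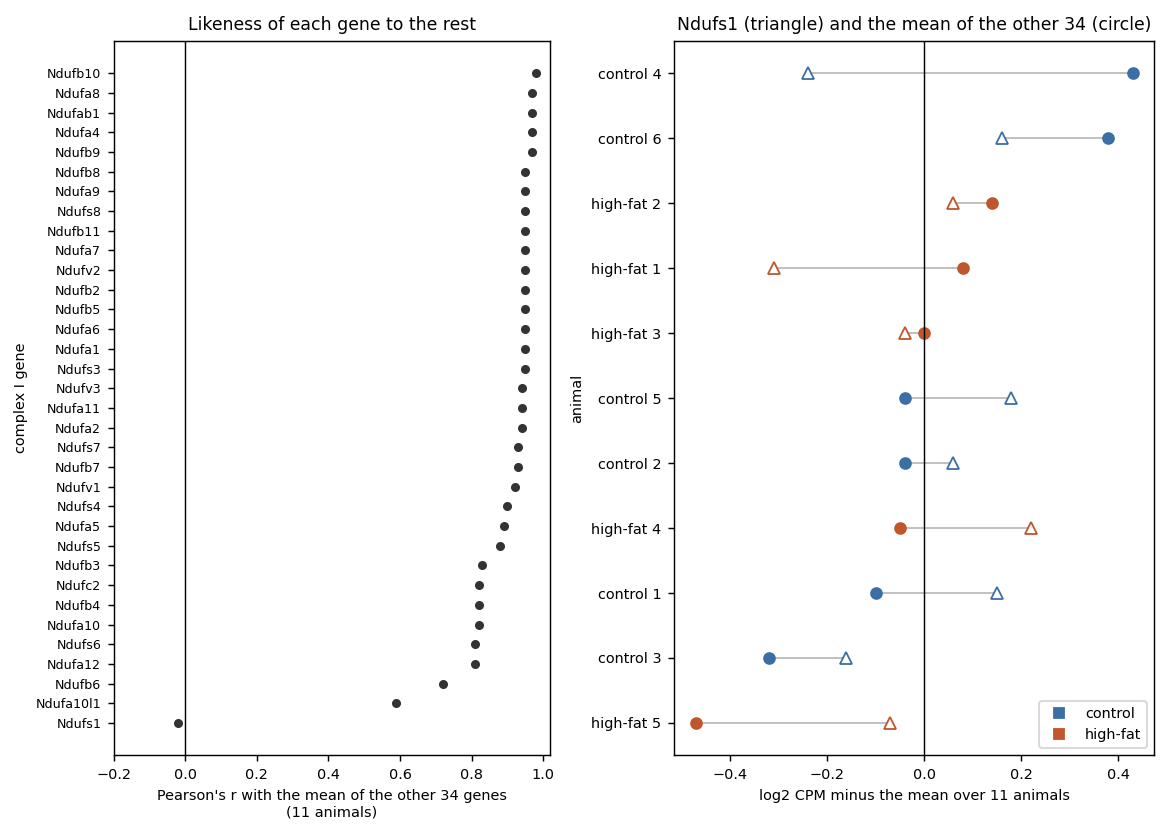
Left, Pearson's r over 11 animals of 34 of the 35 genes, each with the mean of all other members; most lie above 0.9 and Ndufs1 lies at -0.02. Right, the log2 deviation of Ndufs1 and of the mean of the other 34 in each animal; the 2 are farthest apart in control 4, where Ndufs1 is at -0.24 and the mean of the others at 0.43.

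Promoter sequences from RefSeq (GRCr8, 250 bases before to 50 after the annotated start) were at hand for 31 of the 35 members. Those of Ndufs1, of the closely matched Ndufb10 and Ndufab1, and of Ndufa11, which holds a motif of the respiratory regulator NRF1, are shown to set the gene that departed beside genes that varied together. Capitals mark matches to any of 3 motifs searched on both strands.
Ndufs1 promoter, chr9:72073556-72073855, minus strand: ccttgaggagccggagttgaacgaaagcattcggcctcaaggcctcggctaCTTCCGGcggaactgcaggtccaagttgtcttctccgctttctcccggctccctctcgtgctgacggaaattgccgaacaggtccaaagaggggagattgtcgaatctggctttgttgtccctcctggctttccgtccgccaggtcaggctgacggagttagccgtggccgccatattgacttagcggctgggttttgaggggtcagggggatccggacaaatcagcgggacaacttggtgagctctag
Ndufb10 promoter, chr10:14255917-14256216, minus strand: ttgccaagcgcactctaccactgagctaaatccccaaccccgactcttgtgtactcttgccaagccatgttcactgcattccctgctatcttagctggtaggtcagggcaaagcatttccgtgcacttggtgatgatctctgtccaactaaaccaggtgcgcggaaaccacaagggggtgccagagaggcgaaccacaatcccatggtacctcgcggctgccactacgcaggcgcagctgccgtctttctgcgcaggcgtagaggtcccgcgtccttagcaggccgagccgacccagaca
Ndufab1 promoter, chr1:186089287-186089586, minus strand: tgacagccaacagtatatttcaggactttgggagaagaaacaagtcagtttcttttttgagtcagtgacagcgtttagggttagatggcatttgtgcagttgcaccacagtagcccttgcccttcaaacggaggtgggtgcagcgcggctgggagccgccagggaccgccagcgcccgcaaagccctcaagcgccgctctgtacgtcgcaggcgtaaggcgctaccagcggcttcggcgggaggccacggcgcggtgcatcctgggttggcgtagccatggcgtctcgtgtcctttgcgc
Ndufa11 promoter, chr9:1637364-1637663, plus strand: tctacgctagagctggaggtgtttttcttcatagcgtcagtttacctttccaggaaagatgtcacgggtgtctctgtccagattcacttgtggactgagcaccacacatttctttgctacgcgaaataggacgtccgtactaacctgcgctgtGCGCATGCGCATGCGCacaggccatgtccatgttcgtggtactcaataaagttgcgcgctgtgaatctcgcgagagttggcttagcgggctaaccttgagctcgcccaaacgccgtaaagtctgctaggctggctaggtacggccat
The NRF1 motif was searched as its consensus with 1 free base, an ETS motif (the family of the regulator GABP) as CCGGAAG and an oestrogen-related receptor motif as TCAAGGTCA. The NRF1 letters were present in 7 of the 31 promoters (22.6%), those of Ndufa5, Ndufa11, Ndufa12, Ndufb4, Ndufs5, Ndufs6 and Ndufv3, against 4.25% of 33469 promoters of the same length in the table. In Ndufa11 the marked stretch holds 2 overlapping matches. The ETS letters were present in 6 of 31 (19.4%), those of Ndufa1, Ndufa2, Ndufa6, Ndufb7, Ndufs1 and Ndufs8, against 8.75% of all. The receptor letters were in 0 of 31, against 0.433% of all. The windows of Ndufb10 and Ndufab1 hold none of the 3, and that of Ndufs1 holds the ETS letters. Each member entered with 1 promoter, while the 33469 were all promoters listed, not reduced to 1 per gene or to the genes tested here. These matches describe the letters only.

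Core subunits other than Ndufs1, which carry out electron transfer and are shared with bacteria, had r of 0.92 to 0.95 with the rest. Ndufv1, which binds NADH and the flavin, stood at 463, 533 and 729 CPM (lowest, median and highest control animal) and at 474, 652, 541, 537 and 383 CPM in high-fat 1 to 5. Ndufv2, its iron-sulfur partner, stood at 455, 626 and 821 CPM in controls and at 710, 648, 608, 557 and 472 CPM in high-fat 1 to 5. The ratio of Ndufv1 to Ndufv2 varied 1.52-fold and was smallest in high-fat 1.

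In the Q module, the core subunit gene Ndufs3 stood at 284, 367 and 463 CPM in controls and at 319, 379, 348, 336 and 237 CPM in high-fat 1 to 5. High-fat 5 lay below every other animal, and the other 4 high-fat animals lay within the control range. For Ndufs7 the control values were 349, 398 and 606 CPM and the high-fat values 442, 567, 430, 433 and 286 CPM. For Ndufs8 they were 180, 200 and 296 CPM against 216, 267, 220, 207 and 132 CPM. The same held for both, with high-fat 5 lowest of all 11.

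Parts of the complex varied less against each other than in level. The mean of the 10 N module genes ranged 1.68-fold over the 11 animals, that of the 6 Q module genes 1.92-fold, that of the 7 proximal membrane genes 1.71-fold and that of the 10 distal membrane genes 2.01-fold. The ratio of N module to distal membrane genes ranged 1.22-fold, and that of core to accessory genes 1.19-fold. The log2 ratio of N module to distal membrane genes was 0.00 ± 0.11 for control (SD, n = 6) and 0.00 ± 0.06 for high-fat animals (SD, n = 5). It was lowest in control 4 at -0.20, where the distal mean was 0.53 and the N module mean 0.33. Core over accessory genes gave 0.01 ± 0.07 for control and -0.01 ± 0.09 for high-fat animals. Ndufs1, which departed from the rest, is among the 7 core genes averaged here, and the ratio was not computed without it. The ratio of the highest to the lowest animal ran from 1.44 for Ndufs1 to 2.64 for Ndufb8, a distal membrane subunit, with a median of 1.95.

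Ndufa10 and Ndufa10l1 are near copies, and RefSeq lists Ndufa10 as an older name of Ndufa10l1, so the identity of each row and the split of reads between them are uncertain. Ndufa10 stood at 283, 337 and 398 CPM in controls and at 328, 363, 289, 371 and 264 CPM in high-fat 1 to 5. Ndufa10l1 stood at 47.9, 52.7 and 77.5 CPM in controls and at 61.3, 62.1, 62.4, 57.7 and 45.9 CPM in high-fat 1 to 5. The ratio of Ndufa10l1 to Ndufa10 varied 1.58-fold, being lowest in control 4 and highest in high-fat 3.

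Between the maternal diets, no member differed beyond the spread between animals. The fitted mean was lower in the high-fat group for 33 of the 35 members, against 49.1% of all genes, and higher for Ndufa10l1 and Ndufb4. The members varied together, so this count does not stand for 35 independent observations. The median log2 fold change was -0.12 over the members and 0.00 over all genes tested. By edgeR's quasi-likelihood test, adjusted by Benjamini-Hochberg over all genes at 0.05, 0 members and 0% of all genes passed, and the smallest adjusted p among the members was 0.974. Before adjustment 0 members were under p of 0.05, against 4.84% of all genes. DESeq2 called 7 of all genes and edgeR's likelihood ratio test 8, with 0 members among either. The groups overlapped for every member, while 0.37% of all genes had groups that did not overlap. In 29 of the 35 members the log2 fold change was smaller than its standard error. Without high-fat 5 the median was -0.04 with 25 of 35 members lower, and without control 4 it was -0.04 with 27 lower. Without control 6 it was -0.05 with 29 lower, and without control 3 it was -0.19 with 35 lower.

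Means of other gene groups also leaned one way between the diets, with 0 genes of these groups passing the adjusted test. Genes of complexes II to V had a lower mean in 36 of 39 (median log2 fold change -0.12) and mitochondrial ribosomal protein genes in 64 of 71 (-0.10), and 2 of the latter had an unadjusted p under 0.05. Macrophage markers had a higher mean in 14 of 14 (0.68), 3 of them with an unadjusted p under 0.05, and fast fibre genes a lower mean in 9 of 10 (-0.70). Matrix and fibroblast markers had a higher mean in 10 of 12 (0.18). Schwann cell markers had a lower mean in 6 of 6 (-1.16), 2 with an unadjusted p under 0.05. Control 5 stood apart in the Schwann cell markers, with a mean log2 deviation of 3.32 against -0.91 to 0.46 in the other animals. Their summed level was 64.1 to 1627 CPM in controls and 50.5 to 168 CPM in high-fat animals. The part of these gene groups in the values of the members was not tested.

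Ndufa2, an accessory subunit of the N module with a thioredoxin-like fold, had the smallest p. It stood at 176, 198 and 286 CPM (lowest, median and highest control animal) and at 203, 225, 189, 173 and 149 CPM in high-fat 1 to 5, a log2 fold change of -0.23 ± 0.15 (SE). Ndufs3 had -0.22 ± 0.15 and Ndufb5, of the distal membrane arm, -0.22 ± 0.16. Ndufb5 stood at 351, 475 and 655 CPM in controls and at 452, 462, 490, 432 and 331 CPM in high-fat 1 to 5. On the other side Ndufb4 had 0.02 ± 0.21 and Ndufa10l1 0.02 ± 0.14, and both turned negative without any 1 of several animals. Ndufb4, of the distal membrane arm, stood at 40.6, 57.0 and 102 CPM in controls and at 70.8, 71.2, 59.6, 64.8 and 46.4 CPM in high-fat 1 to 5. Ndufs1 had -0.05 ± 0.12 and Ndufa4 -0.17 ± 0.17. Medians by part were -0.12 for the N module, -0.11 for the Q module, -0.10 for the proximal and -0.13 for the distal membrane genes. With a median standard error of 0.16, differences of this size were not detectable with 11 animals.

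**Figure D3:**
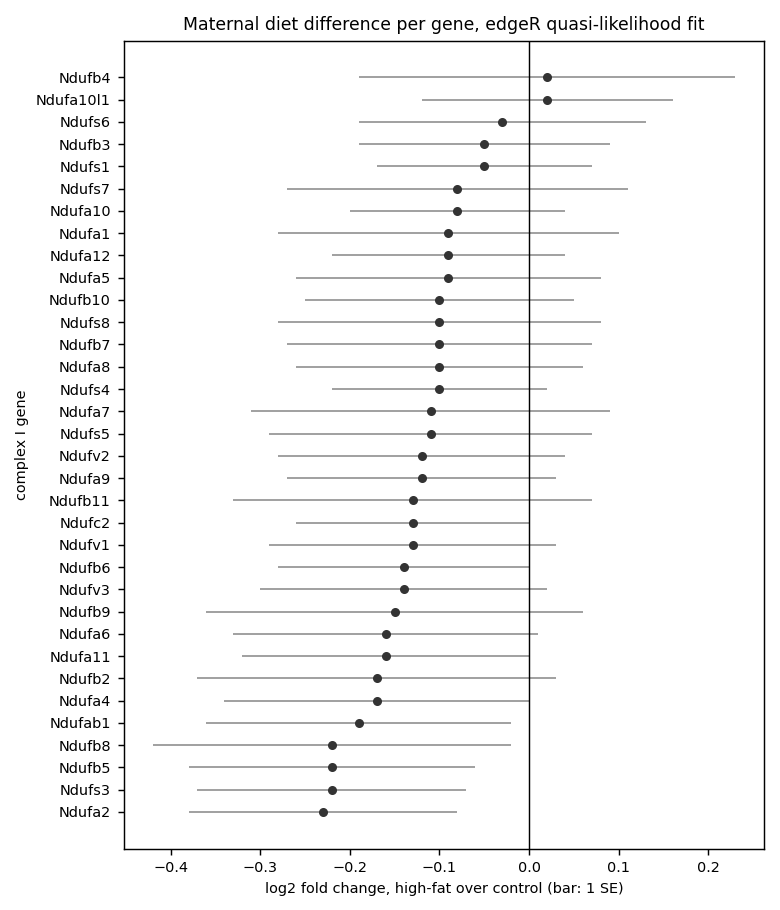
Log2 fold change of 34 of the 35 genes, high-fat over control, with bars of 1 standard error from the edgeR fit. Values run from -0.23 for Ndufa2 to 0.02 for Ndufb4 and Ndufa10l1, and all but these last 2 are below 0.

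Animal measures from the labels were then set against the transcripts, with a slope fitted for each gene as log2 change per SD of the measure. The slope on body weight (SD 110 g) was positive for all 35 members, against 45.8% of all genes, with a median of 0.15 against -0.01. After adjustment 0 members passed, as did 0.00925% of all genes. At an unadjusted p under 0.05 there were 13 of 35, all positive, against 8.01% of all genes and 4.46% of all genes with a positive slope. Because the members varied together, counts of members here and for the measures below are not counts of independent observations. The smallest p was that of Ndufa12 (slope 0.19 ± 0.04, SE; adjusted p = 0.575 in edgeR's quasi-likelihood test). Ndufa12 stood at 176, 208 and 255 CPM in controls and at 180, 211, 224, 230 and 151 CPM in high-fat 1 to 5. Next was Ndufs3 (0.20 ± 0.07), and Ndufs1 had the slope 0.09 ± 0.06.

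The count of 13 depended on single animals. High-fat 1 (609 g), high-fat 5 (625 g) and control 3 (642 g) were the lightest, with members' means of 0.07, -0.46 and -0.32. Control 6 (909 g), high-fat 4 (900 g) and high-fat 3 (884 g) were the heaviest, with means of 0.37, -0.04 and 0.00. Without control 6 or high-fat 5, 2 members had an unadjusted p under 0.05, and without control 3 there were 5. There were 28 without high-fat 1, 24 without high-fat 4 and 20 without high-fat 3, and 8 with maternal diet in the fit. All 39 measured genes of complexes II to V also had a positive slope, with a median of 0.16 and 14 at an unadjusted p under 0.05. So had 70 of 71 mitochondrial ribosomal protein genes (median 0.09), 18 of them at an unadjusted p under 0.05. Markers of other cell types also had slopes on weight. They were positive in 0 of 14 macrophage markers (median -0.32, 1 with an unadjusted p under 0.05), 0 of 8 adipocyte markers (-0.32, 2 with an unadjusted p under 0.05) and 0 of 12 matrix markers (-0.11). All 6 red cell genes had a positive slope (median 0.22) and an unadjusted p under 0.05. Fast fibre genes had a positive slope in 8 of 10 (median 0.30) and slow fibre genes in 8 of 8 (0.07), 0 of either with an unadjusted p under 0.05. The part of these gene groups in the slopes of the members was not tested.

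Slopes on fat were positive for most members. Total fat was 6.02 ± 1.70% of body weight in control (SD, n = 6) and 9.41 ± 4.43% in high-fat animals (SD, n = 5). Abdominal fat was 11.5 ± 3.06 g and 15.1 ± 1.80 g. The slopes were fitted without maternal diet unless stated. Total fat in the labels is the sum of mesenteric, perirenal and abdominal fat. It thus covers these depots only and contains the abdominal fat. For total fat as a share of body weight 34 of 35 were positive (47.4% of all genes), with a median of 0.10, and Ndufs1 had -0.05 ± 0.06. After adjustment 0 members passed, as did 0.00925% of all genes, and 1 had an unadjusted p under 0.05 (8.64% of all genes). That gene was Ndufs6, a zinc-binding subunit of the N module (slope 0.20 ± 0.06, adjusted p = 0.423 in edgeR's quasi-likelihood test). Ndufs6 stood at 36.3, 47.2 and 58.3 CPM in controls and at 63.3, 48.7, 43.5, 47.2 and 31.6 CPM in high-fat 1 to 5. High-fat 1, with the largest share of this fat at 16.3% of body weight, was its highest and high-fat 5, at 4.51%, its lowest. Ndufa5, of the Q module, was next at 0.16 ± 0.08. Without high-fat 1 there were 6 members with an unadjusted p under 0.05, without control 4 there were 4, without control 6 or high-fat 4 there were 2, and with maternal diet in the fit 10. The median slope was 0.26 without high-fat 1, 0.05 without high-fat 5 and 0.17 with maternal diet in the fit.

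For abdominal fat 35 of 35 slopes were positive (52.4% of all genes), with a median of 0.08. After adjustment 0 members and 0% of all genes passed, and 0 members had an unadjusted p under 0.05 (3.73% of all genes). Ndufb4 (0.21 ± 0.10) and Ndufb3, also of the distal membrane arm (0.13 ± 0.07), had the smallest p. Without control 3, the animal with the least abdominal fat, 21 of 35 were positive. With maternal diet in the fit 7 had an unadjusted p under 0.05, and without high-fat 5 there were 3. The median slope was 0.02 without control 3, 0.13 without high-fat 4 and 0.17 with maternal diet in the fit.

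Slopes on plasma insulin and on HOMA-IR, an index of insulin resistance, were close to 0. Both were fitted on 10 animals, because high-fat 5 has no value for either. High-fat 5 had the lowest members' mean of all animals (-0.46). These slopes thus rest on a narrower spread of the members than those on weight and fat. Insulin was 1.61 ± 0.252 ng/ml in control (SD, n = 6) and 2.27 ± 0.493 ng/ml in high-fat animals (SD, n = 4). HOMA-IR was 11.3 ± 2.29 and 18.9 ± 9.35. Glucose enters HOMA-IR, and the labels repeat a single glucose value, 6.36 mmol, for 3 of 6 controls. For insulin 7 members had a positive slope (48.5% of all genes) with a median of -0.03, and for HOMA-IR 8 were positive (48.5% of all genes) with a median of -0.04. In both fits 0 members had an unadjusted p under 0.05, against 3.5% and 6.26% of all genes, and 0 passed the adjustment, against 0% and 0.277%. Ndufa2 had the smallest p in both, with a slope of -0.11 ± 0.08 each. Ndufa11, of the proximal membrane arm, was second for insulin (-0.07 ± 0.08) and Ndufb8 for HOMA-IR (-0.11 ± 0.10). The count of positive insulin slopes was 2 without control 3 and 4 without control 5. It was 13 without control 4, 16 without high-fat 4 and 19 without control 6. For HOMA-IR it was 5 without control 1, 3 or 5, 14 without high-fat 4 and 19 without control 4. Without high-fat 4 the HOMA-IR fit called 0 of all genes in place of 30.

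**Figure D4:**
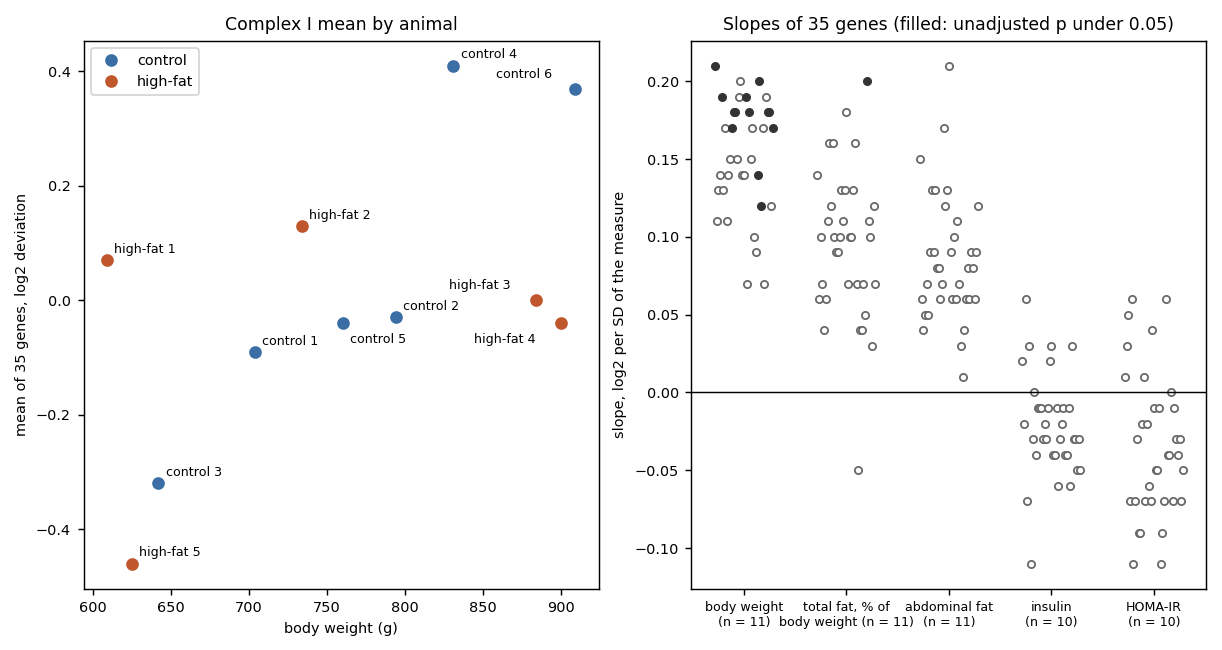
Left, mean log2 deviation of the 35 genes against body weight in g, 1 point per animal; control 4 and control 6 are highest, and control 3 and high-fat 5 lowest. Right, slope of each gene in log2 per SD of each of 5 measures, with filled points for an unadjusted p under 0.05. The medians over 11 animals are 0.15 for body weight, 0.10 for total fat and 0.08 for abdominal fat. Over 10 animals, without high-fat 5, they are -0.03 for insulin and -0.04 for HOMA-IR.

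Outside the members, likeness was measured by Pearson's r over the 11 animals between a gene's log2 CPM and the mean of the 35 members, over 10779 genes with a median r of -0.08. The highest was Slc25a4, the ADP/ATP carrier of muscle mitochondria (r = 0.997). Then came Atp5o of ATP synthase (0.985), Cox7c of complex IV (0.978), Grpel1, a cofactor of mitochondrial protein import (0.977), and Prkag1, a regulatory subunit of AMP-activated protein kinase (0.975). A total of 145 genes (1.35%) were above 0.9. At the other end stood Cnot6l (-0.945), a subunit of an mRNA deadenylase, Igf2r (-0.940), Ebf2 (-0.940), Nova1 (-0.934) and Eps15 (-0.930).

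Regulators of mitochondrial genes had lower correlations. Among 11 of them the median r with the members' mean was 0.18, and the range was -0.85 (Gabpa) to 0.74 (Esrra). Control means of these 11 ran from 3.14 CPM (Gabpb1) to 219 CPM (Esrra). The part of low counts in these correlations was not tested. Ppargc1a, the coactivator that drives mitochondrial biogenesis, had r = 0.24. Tfam, which maintains mitochondrial DNA, had 0.33 and Nrf1 had -0.54. In the diet comparison 0 of the 11 passed the test, with 7 lower and 4 higher and a median log2 fold change of -0.05. Of 3 genes whose products are used as markers of mitochondrial content, the import receptor gene Tomm20 had r = 0.72, the outer membrane channel gene Vdac1 had 0.63 and the citrate synthase gene Cs had 0.25.

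Of 19 listed assembly factor genes 14 were tested. In the diet comparison 0 passed, with 11 lower and 3 higher and a median of -0.09. Their r with the members' mean was highest for Ndufaf3 and Ecsit (0.94 each) and lowest for Ndufaf7 (-0.19), with Ndufaf1 and Acad9 at 0.05. On body weight 13 of the 14 had a positive slope and 0 passed the adjustment. At an unadjusted p under 0.05 there were 3, Ecsit (0.16), Timmdc1 (0.15) and Tmem126b (0.13).

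Markers of some other cell types varied inversely with the members. All 14 measured macrophage markers had a negative r with the members' mean (-0.72 to -0.47), as had all 12 matrix and fibroblast markers (-0.87 to -0.60) and 6 of 8 adipocyte markers (-0.80 to 0.59 over the 8). Summed macrophage marker levels were 381 to 1130 CPM in controls and 316 to 1985 CPM in high-fat animals, with the 1985 CPM in high-fat 5. Summed matrix marker levels were 1306 to 4574 CPM in controls and 1576 to 4390 CPM in high-fat animals. Control 3 had 4574 and high-fat 5 had 4390 CPM of these, while control 6 had 1306. Adipocyte markers summed to 564 to 940 CPM in controls and 500 to 905 CPM in high-fat animals, with 940 in control 3 and 905 in high-fat 5. No marker of these 3 lists was at 0 in any library. The other cell types had median r nearer to 0, at 0.22 for 6 endothelial markers (-0.23 to 0.47), 0.06 for 6 smooth muscle and pericyte markers (-0.28 to 0.21), -0.11 for 6 Schwann cell markers (-0.63 to 0.13) and 0.31 for 6 red cell markers (0.24 to 0.50).

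Fast fibre genes summed to 10491 CPM in control 3, 18314 in high-fat 5, 41746 in control 6 and 47232 in control 4. The range was 10491 to 47232 CPM in controls and 11088 to 38676 CPM in high-fat animals. The 10 genes had a median r of 0.62 with the members' mean (-0.34 to 0.80). As a mean log2 deviation they were highest in control 2 (1.14), whose members' mean was -0.03. High-fat 4 was at -0.88 and high-fat 5 at -0.04, with members' means of -0.04 and -0.46. Slow fibre genes summed to 85106 to 105843 CPM in the control group and to 75204 to 106214 CPM in high-fat animals, with the 75204 CPM in high-fat 5. The 8 slow fibre genes had a median r of 0.66 with the members' mean (0.02 to 0.94). A list of 12 very long transcripts, chosen after the data were seen, had a negative r with the members' mean in 11 of 12 and summed to 1400 CPM in control 6, 1658 in control 4, 1933 in control 3 and 1991 in high-fat 5. The part of these marker and transcript levels in the co-variation of the members and in the diet and weight comparisons was not tested.

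**Figure D5:**
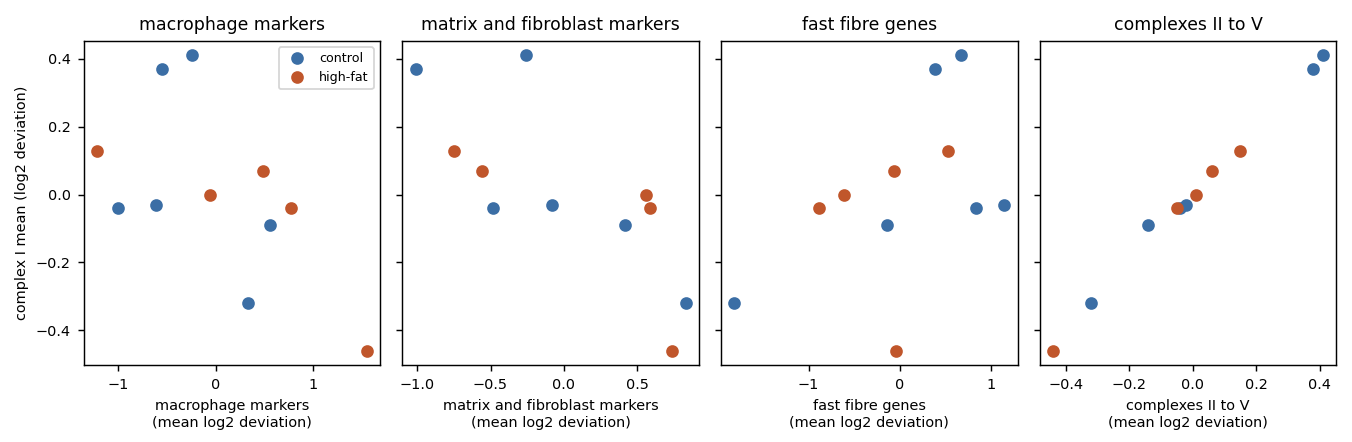
Mean log2 deviation of the 35 genes against that of macrophage markers, matrix and fibroblast markers, fast fibre genes and genes of complexes II to V, 1 point per animal. The panel of complexes II to V runs in nearly a straight line from high-fat 5 at -0.44 to control 4 at 0.41, and in the macrophage panel high-fat 5 has the highest marker level and the lowest complex I mean.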

How the data were processed

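The authors deposited raw read counts per gene symbol, 1 column per animal, for 16810 rows. FastQC, BWA, HTSeq and edgeR are named without versions, per the submitters' processing notes. Build, annotation and strand setting were not given in the sources used here. Reads of 36 cycles came from poly(A) RNA, 2 µg of total RNA per library, per the labels' protocols. Groups came from the diet label. Animal numbers follow the order of the series and only name animals: high-fat 2 to 5 are numbered 3 to 6 in the deposited column names. The smallest chi-square per degree of freedom between libraries of a group was 25.1 over 25 pairs, so no library repeated another of its group. Pairs across the groups were not compared.

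Counts were filtered with filterByExpr (10814 rows kept, 5996 removed) and scaled by TMM in edgeR 4.0.16 under R 4.3.3, and tested by its quasi-likelihood F test, adjusted by Benjamini-Hochberg over all genes at 0.05. A log2 fold change or slope divided by the square root of F gave its standard error. The common biological coefficient of variation was 0.234. Log2 CPM used a prior count of 2. The test was run first on simulated data. Alternatives were scaling by RLE, upper quartile or library totals, no filter, DESeq2 1.42.0, limma 3.58.1 (voom), the likelihood ratio test, name letter or maternal diet as covariate, and leaving out each animal. Figures and promoters used Python 3.11.15 with pandas 2.3.3 and matplotlib 3.10.9.

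Named genes were the 4 members with the smallest diet p per direction, the 3 most and 3 least like the rest, core subunits, Ndufa10l1, Ndufa4, the 2 smallest p per measure, and the 5 most and 5 least like genes outside. Naming the highest and lowest by level per length was not possible without transcript lengths. Assignment to modules and marker lists followed textbook knowledge. A gene that this rule picks is not reported by name here, though it stayed in the fits and counts. The members and lists were chosen with earlier results of these data known.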

Additional observations from a re-analysis of the deposited data

Results flagged for a closer look

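In 2 of 76 gene and group combinations examined, 1 animal stood apart from the rest of its group by Dixon's criterion, and chance gives about 1 in 20 such cases. Both concerned high-fat 5 as the lowest of its group. Ndufa1, a small subunit of the proximal membrane arm, stood at 286 CPM there, against 393 to 408 CPM in the other high-fat animals. Ndufa10l1 stood at 45.9 CPM, against 57.7 to 62.4 CPM. High-fat 5 was the lowest of all 11 animals for 27 of the 35 members. Its log2 deviation was -0.42 for Ndufa1 and -0.31 for Ndufa10l1, against a mean of -0.46 over the members. Neither gene thus fell further there than the members' mean.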

How the results depend on the processing

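Of 810 alternative values, 55 moved and 19 changed sign. For the other 736, a count stayed within 1.5 times, a gene kept its sign and side of the threshold, or a value moved by less than its spread, which for medians over the members is the SD of their mean between animals of a group (0.25 on the log2 scale). That tolerance is wider than the median difference between the diets, so it says little about stability there. No member passed the adjusted threshold for diet or for any measure under any alternative run. For diet, DESeq2 called 7 genes and the likelihood ratio test 8, in place of 0, and Ndufb4 was -0.10 with the name letter as covariate. Without 1 animal the log2 fold change ran from -0.03 to 0.12 for Ndufa10l1, -0.08 to 0.22 for Ndufb4, -0.19 to 0.04 for Ndufs7, -0.20 to 0.03 for Ndufs8, -0.12 to 0.01 for Ndufs1 and -0.16 to 0.01 for Ndufb10. With maternal diet in the fit, members with an unadjusted p under 0.05 numbered 8 for body weight, 10 for total fat and 7 for abdominal fat, positive insulin slopes numbered 12, and genes called for HOMA-IR numbered 6. Without a filter, 2 genes were called for abdominal fat and 1 member had an unadjusted p under 0.05. Without 1 animal, members with an unadjusted p under 0.05 numbered 2 to 28 for body weight, 1 to 6 for total fat and 0 to 3 for abdominal fat. Positive slopes then numbered 21 to 35 for abdominal fat, 2 to 19 for insulin and 5 to 19 for HOMA-IR. Genes called numbered 0 to 1 for body weight, 0 to 2 for total fat, 0 to 3 for insulin and 0 to 36 for HOMA-IR. With library totals as scaling the median pairwise r was 0.70 and the first component held 71.9%. The SD of the log2 ratio of Ndufs1 to the members' mean was 0.24 to 0.33 without 1 animal, against 0.31. The cause of these shifts was not tested. The labels give no replicate numbers, but the column names of the count table do, and 5 numbers occur in both groups. Animals with the same number did not deviate together (r over genes -0.35 to 0.04, and 0 of 10 animals correlated best with their own number). With that replicate block, chosen after seeing the data, 0 genes and 0 members were called, and 33 of 35 members were lower with a median of -0.12. With 11 animals and short reads, precision was limited by the spread between animals rather than by counting.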
